A study of Mus musculus with 9 samples.

Results

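Aass, Bckdhb and Cps1 encode mitochondrial enzymes of amino acid breakdown, and each gave rise to circular RNAs (circRNAs) in mouse liver. A circRNA is a closed ring made when the end of an exon is spliced back to the start of an exon upstream of it, and it is counted by reads that cross this back-splice junction. All rows of the deposited circRNA table with 1 of these 3 genes as source gene were taken, which gave 57 circRNAs (13 of Aass, 11 of Bckdhb and 33 of Cps1) of 11312 in all. The table names 3929 host genes or gene groups.

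All animals were wild-type C57 BL6 mice at 8 weeks of age and about 20 g, and each of the 3 groups has 3 liver libraries. The first group received 300 µg/kg dmPGE2, a stable analogue of prostaglandin E2, 1 hour before 500 mg/kg acetaminophen (dmPGE2+APAP), the second received the acetaminophen alone (APAP), and the third received saline (control). Livers were taken 6 hours after acetaminophen, an overdose of which injures hepatocytes. The labels do not say which animal a library came from, so all p-values rest on the spread among libraries, which may be technical.

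AASS (aminoadipate-semialdehyde synthase) carries out the opening steps of lysine breakdown along the saccharopine pathway. BCKDHB is a subunit of the branched-chain keto acid dehydrogenase, which commits the carbon skeletons of leucine, isoleucine and valine to breakdown. CPS1 (carbamoyl phosphate synthetase) joins ammonia to bicarbonate at the entry of the urea cycle and is among the most abundant proteins of hepatocyte mitochondria, more so near the portal vein. These enzymes are known as proteins and no role is given here to their circRNAs.

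The leading circRNAs of the 3 hosts are shown by the sequence across their back-splice junction, which is what the counted reads cross. In each line the last 30 bases of the donor exon are in lower case and the 30 bases that follow in the ring, from the acceptor exon, are in capitals. They were read from 1 GENCODE M21 transcript per gene (GRCm38), in the sense of the gene, and exon numbers are those of that transcript.
Aass, exon 11 to exon 2: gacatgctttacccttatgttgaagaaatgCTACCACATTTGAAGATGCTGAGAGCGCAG
Bckdhb, exon 8 to exon 4: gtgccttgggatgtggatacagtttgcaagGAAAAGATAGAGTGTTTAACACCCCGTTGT
Bckdhb, exon 6 to exon 2: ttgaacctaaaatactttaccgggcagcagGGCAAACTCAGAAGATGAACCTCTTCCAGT
Cps1, exon 11 to exon 3: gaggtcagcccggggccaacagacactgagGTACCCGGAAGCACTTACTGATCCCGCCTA
Cps1, exon 34 to exon 22: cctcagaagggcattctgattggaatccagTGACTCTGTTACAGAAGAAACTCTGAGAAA
The Aass junction belongs to novel_circ_0012103 (chr6:23107140-23122737, minus strand). The Bckdhb junctions belong to mmu_circ_0001822 (chr9:83988776-84012619, plus strand) and novel_circ_0014841 (chr9:83952524-83991822). The Cps1 junctions belong to novel_circ_0007432 (chr1:67142865-67158941, plus strand) and novel_circ_0007457 (chr1:67195143-67220601).

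The back-splice depth was far lower in control 3 than in the other 8 libraries. Back-splice reads of all circRNAs numbered 99102 to 120531 in the dmPGE2+APAP group, 69268 to 109453 in the APAP group, and 154449, 129971 and 4362 in control 1 to 3. A count of 0 in control 3 allows up to 687.8 CPM (back-splice reads per 1000000 back-splice reads of the library), against 19.4 to 43.3 CPM in the others, for counting error only and with 3 counts as the limit. Each circRNA is counted at a single junction, so counts and CPM carry no length term. As markers of the tissue, 8 of 10 hepatocyte genes had circRNAs (not Ttr and Cyp3a11), as did 2 of 6 Kupffer cell and macrophage, 4 of 6 sinusoidal endothelial, 1 of 6 stellate, 1 of 5 neutrophil and lymphocyte and 1 of 4 cholangiocyte marker genes. A gene can be expressed and form no ring, so these counts speak of circRNA hosts alone.

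Aass was the host with the second highest back-splice level of all 3929, Bckdhb the host of rank 6 and Cps1 of rank 244. Aass had 14303, 10605 and 12048 CPM in dmPGE2+APAP livers, 17245, 12992 and 13686 CPM in APAP livers, and 11298, 13988 and 14901 CPM in control livers. The groups overlapped, and the highest value was in an APAP library. Bckdhb had 8712, 7911 and 9504 CPM in dmPGE2+APAP livers, 9083, 8186 and 8676 CPM in APAP livers, and 9764, 10325 and 13984 CPM in control livers. All 3 control values of Bckdhb lay above the 6 others, the lowest of them only just above dmPGE2+APAP 3. The highest was in control 3, the library with few back-splice reads. Cps1 had 954, 1302 and 906 CPM in dmPGE2+APAP livers, 1123, 804 and 1256 CPM in APAP livers, and 829, 693 and 0 CPM in control livers. The controls overlapped the APAP group and lay below the dmPGE2+APAP group. By the limit above, the 0 in control 3 allows a level of up to 687.8 CPM, close to that of control 2. The level allowed is higher if single reads of several Cps1 rings were left out.

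**Figure D1:**
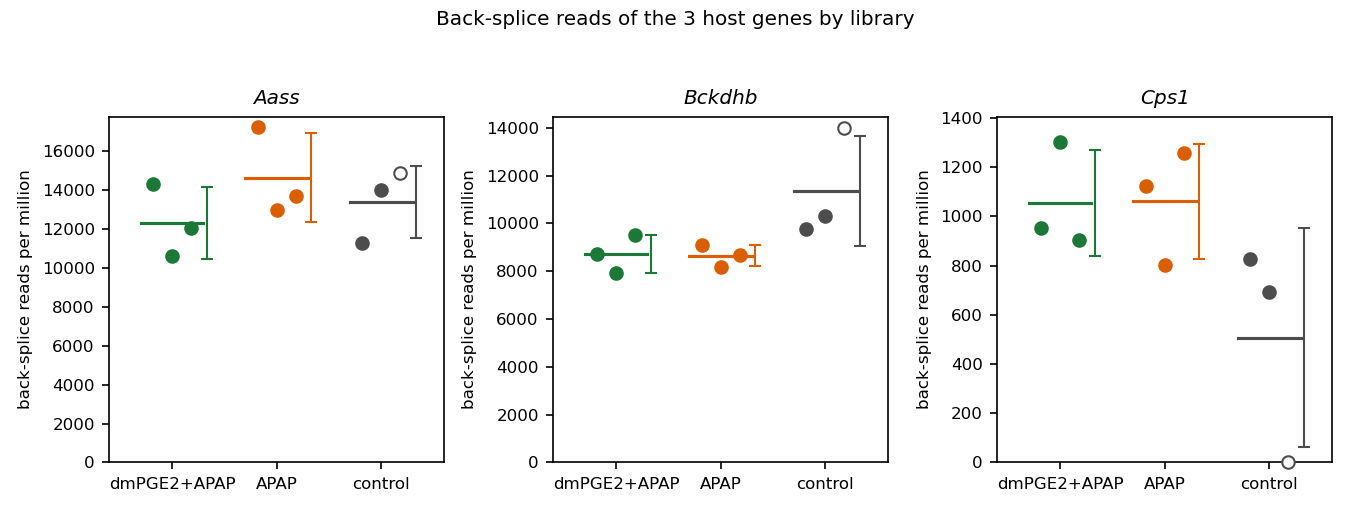
CPM (back-splice reads scaled to the library's back-splice total) of Aass, Bckdhb and Cps1 by group, 1 point per library, with group means as lines and SD as bars (n = 3). The open point is control 3, the library with 4362 back-splice reads. Aass lies at 10605 to 17245 CPM, Bckdhb at 7911 to 13984 CPM, and Cps1 at 0 to 1302 CPM.

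None of the 3 host sums passed the edgeR quasi-likelihood test with Benjamini-Hochberg adjustment, which was fitted over all 2358 host genes with at least 5 reads in at least 3 libraries. In dmPGE2+APAP against APAP livers 0 of 3 passed, where 0.127% of all host genes did. In APAP against control livers 0 of 3 passed, where 0.339% of all did, and in dmPGE2+APAP against control livers 0 of 3 passed, where 0.17% of all did. The count was also 0 by DESeq2 and by limma-voom, and no host sum had an unadjusted p under 0.05 in edgeR, where 2.71%, 5.34% and 4.24% of all host genes did in the comparisons in this order. The CPM ranges of the groups did not overlap for 0 of the 3 hosts in dmPGE2+APAP against APAP, for Bckdhb alone in APAP against control, and for Bckdhb and Cps1 in dmPGE2+APAP against control, beside 10%, 10.3% and 11.3% of all host genes. In bulk liver, fewer cells of a type and less RNA per cell cannot be told apart.

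The log2 fold changes of Aass were -0.23 ± 0.19 for dmPGE2+APAP over APAP (95% interval -0.59 to 0.14), 0.31 ± 0.19 for APAP over control (-0.06 to 0.68) and 0.09 ± 0.19 for dmPGE2+APAP over control (-0.29 to 0.46; SE, n = 3 per group). Those of Bckdhb were 0.03 ± 0.20 (-0.36 to 0.42), -0.18 ± 0.20 (-0.57 to 0.22) and -0.14 ± 0.20 (-0.54 to 0.25) in the same order. The intervals of Aass and Bckdhb include 0 in each comparison and also changes in either direction. The log2 fold changes of Cps1, in that order, were 0.01 ± 0.37 (-0.71 to 0.74), 0.66 ± 0.39 (-0.11 to 1.43) and 0.67 ± 0.39 (-0.09 to 1.44). The adjusted p was 0.933 to 1 over these 9 values by edgeR. The median log2 fold change of all tested host genes was 0.15 for APAP over control and 0.20 for dmPGE2+APAP over control, and it was -0.04 and 0.03 without control 3. Without control 3 the Bckdhb value for APAP over control was -0.27 ± 0.12 (unadjusted p = 0.0354 and adjusted p = 0.909 by edgeR), that of Cps1 was 0.41 ± 0.28, and the Aass value for dmPGE2+APAP over control turned to -0.07 ± 0.13.

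The 3 genes built their circRNAs in different ways, which the map of joined exons shows. In Aass (chr6:23072173-23132986, minus strand, 24 exons) a single ring from exon 2 to exon 11 held 98.03% of all 12030 back-splice reads of the gene. Among the 153 hosts with at least 10 circRNAs this was the highest share of a leading ring, against a median of 41.1%. In Bckdhb (chr9:83925145-84124240, plus strand, 11 exons) the ring of exons 4 to 8 held 62.25% of 8320 reads, and a ring of exons 2 to 6 that overlaps it held 25.02%. In Cps1 (chr1:67123026-67231259, plus strand, 38 exons) 863 reads were spread over 33 circRNAs, the second highest number of any host (median 2), and the leading ring of exons 3 to 11 held 37.20%. Of the 33 Cps1 rings, 16 were seen in 1 library only, as were 6 Aass rings and 1 Bckdhb ring. Exon numbers of a ring give its ends, and not all exons between them need be in it. For the leading Cps1 ring 6 segments of 616 bases are listed, where 9 annotated exons of 928 bases lie between its ends.

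**Figure D2:**
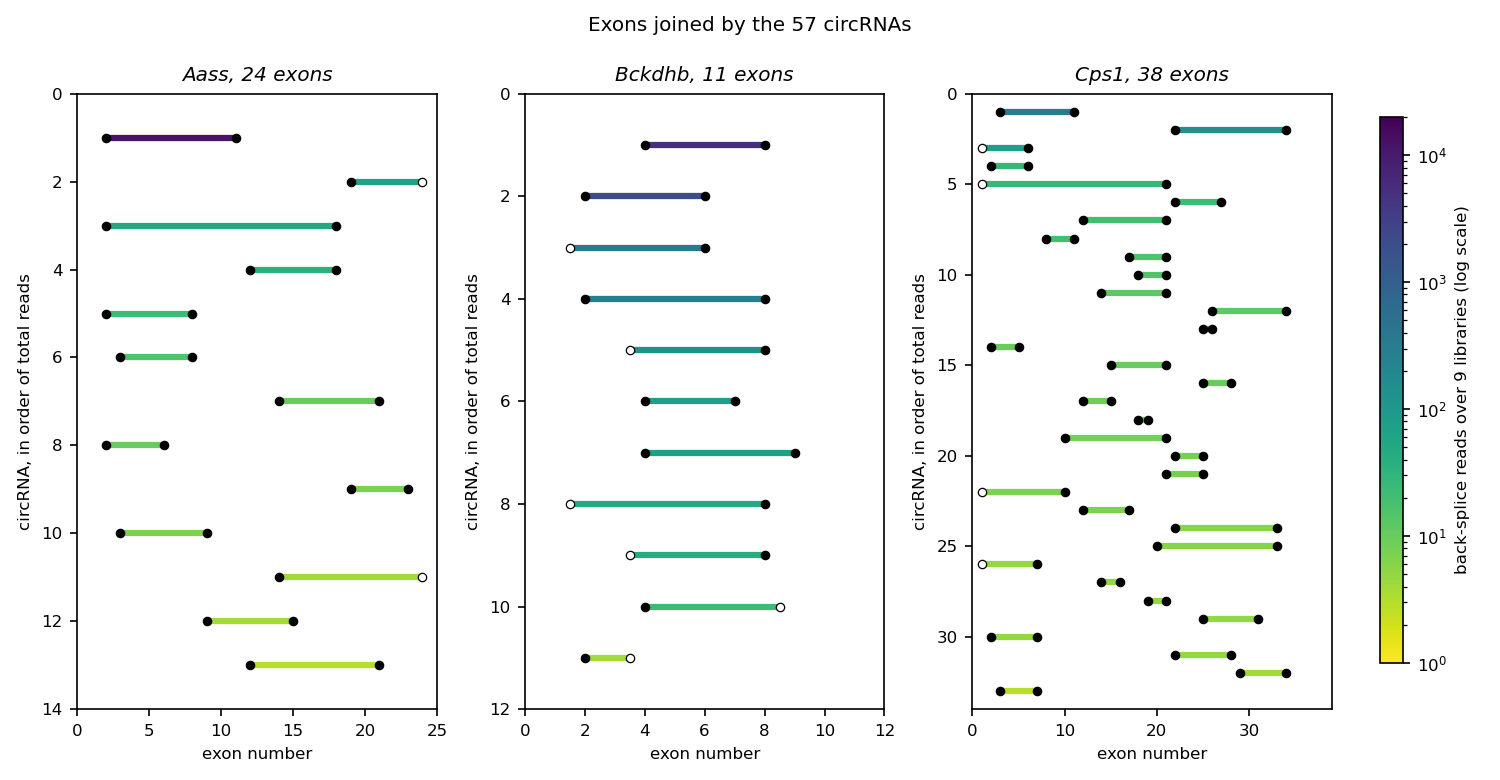
Exons joined by each of the 57 circRNAs, ordered from top to bottom by total reads, with the exon number on the horizontal axis and the colour for back-splice reads over 9 libraries (log scale). Filled ends lie at exon ends of the transcript used, and open ends lie inside an exon or in an intron, drawn midway between its exons. Lines span the ring ends and do not show which exons a ring holds. The Aass reads sit in the top ring, the spans of the Bckdhb rings other than the bottom one overlap, and the Cps1 rings meet at exons 21 and 22.

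The leading Aass ring starts 15 bases upstream of the annotated start codon of Aass and runs through 10 exons of 1293 bases together. This length is a multiple of 3, and the frame of the start codon met no stop codon on its way through the ring and across the junction (426 codons from the start codon to the junction). The table itself lists 6 segments of 933 bases for the ring, and that structure was also without a stop codon in frame. Whether the ring is translated was not measured. Its flanking introns are 10143 and 9937 bases long, which rank 2 and 3 by length among the 23 in the gene. The shorter of them is longer than the shorter flanking intron of 82.7% of the 9844 circRNAs of all hosts for which both introns could be measured.

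The leading Aass ring had 13947, 10424 and 11761 CPM in dmPGE2+APAP livers, 16767, 12700 and 13354 CPM in APAP livers, and 11143, 13895 and 14901 CPM in control livers. The groups overlapped, and the edgeR log2 fold changes were -0.19 ± 0.30 for dmPGE2+APAP over APAP, 0.36 ± 0.30 for APAP over control and 0.17 ± 0.30 for dmPGE2+APAP over control (adjusted p = 1 for each, edgeR). The last of these values was -0.09 ± 0.17 without control 3. The 12 other Aass rings held 3 to 66 reads each, and with the leading ring 4 Aass rings start at exon 2.

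Of the Aass reads, 97.8 ± 0.4% in dmPGE2+APAP, 97.5 ± 0.3% in APAP and 99.3 ± 0.7% in control livers were of the leading ring (SD, n = 3 each). By library, the leading ring held 97.5%, 98.3% and 97.6% of Aass back-splice reads in dmPGE2+APAP livers, 97.2%, 97.8% and 97.6% in APAP livers, and 98.6%, 99.3% and 100% in control livers. The 6 libraries with acetaminophen lay below the 3 controls. An exact permutation test over the 3 groups gave p = 0.0179 (1680 arrangements, two-sided), and the Benjamini-Hochberg adjusted value over the 6 shares tested in this family was 0.107, so it did not pass. The exact p was 0.0536 without control 3, whose 65 Aass reads were all of the leading ring, and 0.0679 without APAP 1. Against control the exact p was 0.1 for either treated group, which is the smallest that 3 against 3 samples allow.

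Of the minor Aass rings, novel_circ_0012095 joins an end inside the last exon, exon 24, to exon 19. It had 15, 0 and 15 reads in dmPGE2+APAP livers, 19, 5 and 6 reads in APAP livers, and 0, 6 and 0 reads in control livers. The groups overlapped, and the log2 fold change for APAP over control was 2.25 ± 1.76 (unadjusted p = 0.2, edgeR). The Aass ring with the smallest unadjusted p in dmPGE2+APAP over control was novel_circ_0012100 (exons 12 to 18), with 0, 18 and 9 reads in dmPGE2+APAP livers, 9, 0 and 0 reads in APAP livers, and 0 reads in each control library. The unadjusted p was 0.041 and the adjusted p was 0.96 by edgeR. Ring novel_circ_0012101 (exons 2 to 18) had 8, 0 and 0 reads in dmPGE2+APAP livers, 13, 7 and 7 reads in APAP livers, and 17, 0 and 0 reads in control livers, and novel_circ_0012106 (exons 2 to 8) had 23 reads in all and did not enter the test.

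The Bckdhb rings other than novel_circ_0014840 overlap in the middle of the gene, and the leading ones lie between long introns. Of the 11 rings, 5 have both ends at annotated exon ends, and these use exons 2 and 4 as their start and exons 6 to 9 as their end. The leading ring, mmu_circ_0001822, holds exons 4 to 8 (608 bases) between introns of 34994 and 56485 bases. Its shorter flanking intron is longer than that of 98.2% of the 9844 circRNAs measured, whose medians are 3392 bases for the shorter and 9330 bases for the longer intron. The ring of exons 2 to 6, novel_circ_0014841, lies between introns of 27164 and 18431 bases, and the table lists for it 2 segments inside intron 3, of 76 and 145 bases, that no annotated exon covers. The other 6 rings, with 600 reads together, are classed as intronic in the table, and each has an end that is no exon end in any of the 6 annotated transcripts of the gene. These ends lie in introns 1, 3 and 8.

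The leading Bckdhb ring, mmu_circ_0001822, had 6231, 5358 and 5689 CPM in dmPGE2+APAP livers, 5954, 5336 and 5789 CPM in APAP livers, and 5257, 5855 and 8941 CPM in control livers. The groups overlapped, with the highest value in control 3, where it rested on 39 reads. The log2 fold change was 0.08 ± 0.32 for dmPGE2+APAP over APAP (95% interval -0.54 to 0.70) and 0.10 ± 0.32 for APAP over control (-0.53 to 0.73).

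The ring of exons 2 to 6 had lower values in both treated groups than in control, without passing the adjusted threshold. It had 1568, 1766 and 2509 CPM in dmPGE2+APAP livers, 2006, 1599 and 1992 CPM in APAP livers, and 3283, 2885 and 3897 CPM in control livers. All 6 treated libraries lay below the 3 controls, and the treated groups overlapped. The log2 fold change for APAP over control was -0.61 ± 0.35 (unadjusted p = 0.082, adjusted p = 0.799) and for dmPGE2+APAP over control -0.49 ± 0.35 (unadjusted p = 0.164, adjusted p = 1, edgeR). Without control 3, which is scaled by the largest factor of any library, these values were -0.81 ± 0.22 (unadjusted p = 0.000475, adjusted p = 0.137) and -0.70 ± 0.22 (unadjusted p = 0.00219, adjusted p = 0.7), and the call did not change.

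Set against each other, the pair of leading Bckdhb rings gives a measure within each library that needs no scaling. Of their reads, the ring of exons 2 to 6 took 20.1%, 24.8% and 30.6% in dmPGE2+APAP livers, 25.2%, 23.1% and 25.6% in APAP livers, and 38.4%, 33.01% and 30.4% in control livers. The APAP libraries lay below all controls, and dmPGE2+APAP 3 reached the lowest control. The exact permutation p over the 3 groups was 0.075 (two-sided), and the p was 0.1 for APAP against control, the smallest possible, and 0.2 for dmPGE2+APAP against control. With each library left out in turn the p over the groups ran from 0.0214, without dmPGE2+APAP 3, to 0.179, without control 1. This ratio was chosen after its values had been seen and is a description. The share of all Bckdhb reads in the leading ring was 66.4 ± 6.0% in dmPGE2+APAP, 65.8 ± 0.8% in APAP and 58.2 ± 5.2% in control livers (SD, n = 3 each, exact permutation p = 0.104 over the groups, adjusted 0.312).

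**Figure D3:**
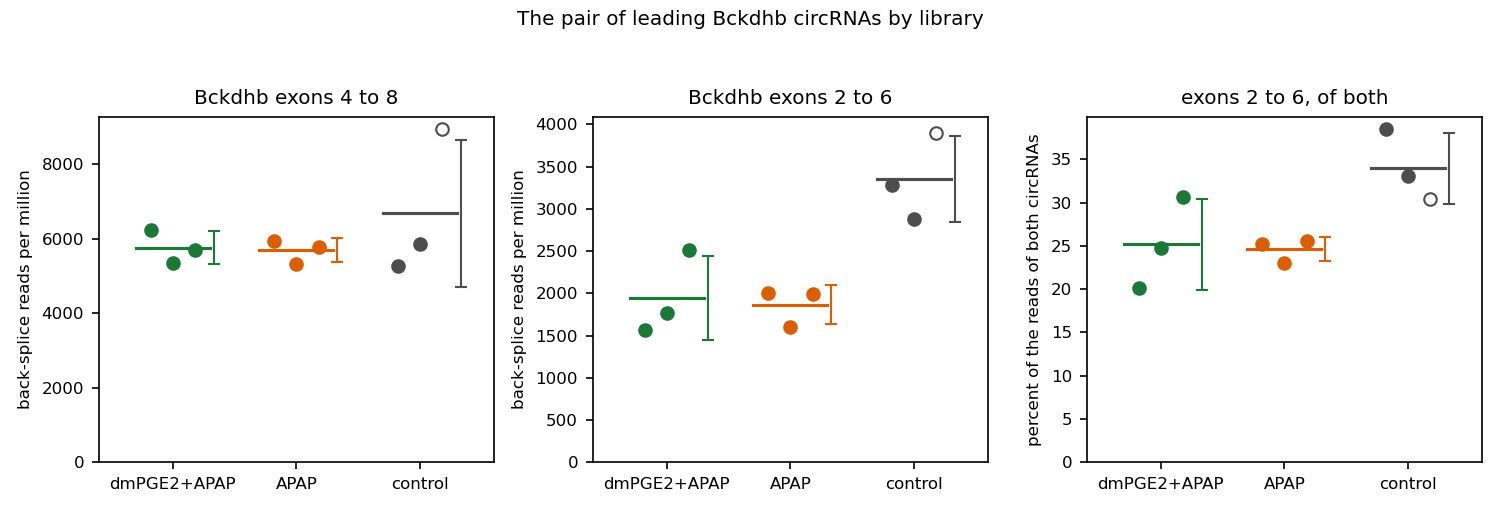
CPM of the Bckdhb rings of exons 4 to 8 (left) and exons 2 to 6 (middle), and the percent of the reads of both that the ring of exons 2 to 6 took (right), 1 point per library with group means as lines and SD as bars (n = 3). The open point is control 3. The ring of exons 2 to 6 sits at 1568 to 2509 CPM in the 6 treated libraries and at 2885 to 3897 CPM in the controls, while the ring of exons 4 to 8 overlaps between groups.

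A further ring that ends at exon 6, novel_circ_0014838, starts in intron 1. It had 257, 222 and 470 CPM in dmPGE2+APAP livers, 285, 375 and 217 CPM in APAP livers, and 376, 708 and 688 CPM in control livers. The APAP libraries lay just below the lowest control, and the log2 fold change for APAP over control was -0.80 ± 0.54 (unadjusted p = 0.137, adjusted p = 0.878, edgeR). The ring of exons 2 to 8, novel_circ_0014842, had 317 ± 46 CPM in dmPGE2+APAP, 291 ± 31 CPM in APAP and 412 ± 77 CPM in control livers (SD, n = 3 each), with log2 fold changes of 0.16 ± 0.56, -0.34 ± 0.58 for APAP over control and -0.18 ± 0.57 for dmPGE2+APAP over control. The APAP libraries of this ring, too, lay just below the lowest control. In control 3, novel_circ_0014838 rested on 3 reads and novel_circ_0014842 on 2. Ring novel_circ_0014846, from intron 3 to exon 8, had 17, 0 and 21 reads in dmPGE2+APAP livers, 19, 17 and 16 reads in APAP livers, and 22, 20 and 0 reads in control livers. As CPM the APAP libraries lay just above control 1 and 2, while the 0 in control 3 allows a level above them. Ring novel_circ_0014848 (exons 4 to 7) had the smallest unadjusted p among Bckdhb rings for dmPGE2+APAP over APAP. It had 0, 4 and 9 reads in dmPGE2+APAP livers, 12, 17 and 7 reads in APAP livers and 25, 6 and 0 reads in control livers. The dmPGE2+APAP libraries lay below the APAP libraries as CPM, with an unadjusted p of 0.278 and an adjusted p of 1 by edgeR.

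The Cps1 rings fell into an upstream and a downstream set that meet at intron 21, the second longest intron of the gene (14953 bases). Within exons 1 to 21 lay 21 rings with 615 reads, downstream of them lay 10 rings with 234 reads that end no later than exon 34, and 2 rings with 14 reads spanned the intron. Exon 21 was the end of 8 rings and exon 22 the start of 5. In the dmPGE2+APAP group the upstream set had 73, 103 and 53 reads and the downstream set 40, 26 and 51. In the APAP group these were 82, 79 and 60 reads upstream and 34, 9 and 21 downstream. In control 1 and 2 they were 80 and 85 upstream and 48 and 5 downstream, and control 3 had 0. The balance of the sets varied within groups, most of all between control 1 and 2.

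The leading Cps1 ring, exons 3 to 11, had 340, 595 and 322 CPM in dmPGE2+APAP livers, 386, 375 and 635 CPM in APAP livers, and 162, 246 and 0 CPM in control livers. Each of the 6 treated libraries, with 37 to 59 reads, lay above control 1 and 2, which had 25 and 32 reads. The 0 reads in control 3 allow up to 687.8 CPM, above all 6 treated values, so control 3 cannot be placed. The log2 fold change for APAP over control was 1.27 ± 0.58 (unadjusted p = 0.0275, adjusted p = 0.799) and for dmPGE2+APAP over control 1.21 ± 0.58 (unadjusted p = 0.0362, adjusted p = 0.96), while dmPGE2+APAP over APAP was -0.07 ± 0.53 (adjusted p = 1, edgeR). Without control 3 the first pair of values was 1.08 ± 0.44 (unadjusted p = 0.0186, adjusted p = 0.841) and 1.00 ± 0.44 (unadjusted p = 0.0281, adjusted p = 1), and neither passed with or without that library. The summed circRNA level of the 8 hepatocyte marker genes with circRNAs, Cps1 among them, was 1298 to 1382 CPM in dmPGE2+APAP, 1179 to 1546 CPM in APAP and 800.2 to 1146 CPM in control livers (800.2 to 1036 CPM without control 3). That of the 4 sinusoidal endothelial marker genes with circRNAs, where Lyve1 and Kdr had none, was 312.8 to 365.1 CPM, 288.7 to 478.5 CPM and 461.6 to 917.0 CPM (461.6 to 692.8 CPM without control 3) in the groups in this order. Cps1 itself made up most of the hepatocyte sum in the libraries other than control 3. It had 906 to 1302 CPM in dmPGE2+APAP, 804 to 1256 CPM in APAP, and 829 and 693 CPM in control 1 and 2. The hepatocyte sum is therefore no separate measure beside Cps1. The part of these cell type markers in the Cps1 values was not tested. The leading ring held 39.0 ± 5.8% of Cps1 reads in dmPGE2+APAP livers, 43.9 ± 8.4% in APAP livers (SD, n = 3 each), and 19.5% and 35.6% in control 1 and 2 (exact permutation p = 0.214 over the groups).

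The ring of exons 22 to 34 had 249, 202 and 314 CPM in dmPGE2+APAP livers, 74, 82 and 217 CPM in APAP livers, and 168, 38.5 and 0 CPM in control livers. The dmPGE2+APAP libraries lay above control 1 and 2 and overlapped APAP 3. The 0 reads in control 3 allow up to 687.8 CPM, above every value of this ring. The log2 fold change was 1.17 ± 0.83 for dmPGE2+APAP over APAP (unadjusted p = 0.158) and 1.46 ± 0.87 for dmPGE2+APAP over control (unadjusted p = 0.0934, adjusted p = 0.962, edgeR).

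**Figure D4:**
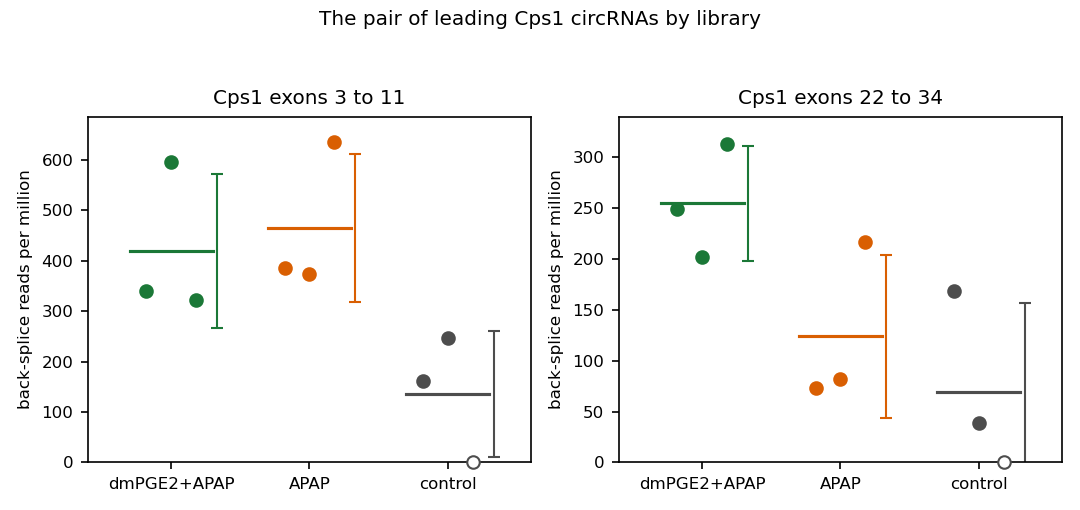
CPM of the Cps1 rings of exons 3 to 11 (left) and exons 22 to 34 (right), 1 point per library with group means as lines and SD as bars (n = 3). The open point is control 3, where both had 0 reads. The ring of exons 3 to 11 sits at 322 to 635 CPM in treated libraries and at 162 and 246 CPM in control 1 and 2. The 0 in control 3 allows up to 687.8 CPM.

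Some ring ends near the gene ends are not in the annotation. In all, 4 Cps1 rings with 116 reads start inside exon 1, at the same base (chr1, position 67123147), 18 bases before the start codon and just after the bases ag. No annotated transcript of Cps1 has an exon start there. The most read of them is novel_circ_0007422, which runs to exon 6, and its junction is shown for the shared start that the annotation lacks.
Cps1, exon 6 to a start inside exon 1: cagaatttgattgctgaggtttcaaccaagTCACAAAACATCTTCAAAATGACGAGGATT
This ring had 12, 4 and 0 reads in dmPGE2+APAP livers, 8, 8 and 0 reads in APAP livers, and 22, 24 and 0 reads in control livers (log2 fold change of APAP over control -1.30 ± 1.54, unadjusted p = 0.398, edgeR). In Aass, 2 rings with 70 reads end inside exon 24 at chr6, position 23072876, just before the bases gt, and no annotated Aass transcript has an exon end there. Of the other Cps1 rings, novel_circ_0007426 had 5, 10 and 0 reads in dmPGE2+APAP livers, 0, 4 and 7 reads in APAP livers and 0 reads in each control. Ring novel_circ_0007454 (exons 22 to 27) had 0 reads in each dmPGE2+APAP library, 10, 0 and 6 reads in APAP livers and 7, 0 and 0 reads in control livers. Its unadjusted p for dmPGE2+APAP over APAP, the smallest of the Cps1 rings, was 0.0463, with an adjusted p of 1 by edgeR.

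Of the 57 rings, 18 had at least 5 reads in at least 3 libraries (4 of Aass, 8 of Bckdhb and 6 of Cps1) and entered the edgeR test, and the other 39 did not. The 18 held 98.14% of the reads of the 3 genes. In dmPGE2+APAP against APAP livers 0 of the 18 passed, where 0.0693% of all 4331 tested circRNAs did. In APAP against control livers 0 passed, against 0.139% of all, and in dmPGE2+APAP against control livers 0 passed, against 0.115% of all. At an unadjusted p under 0.05 there were 1, 1 and 2 of the 18 in these comparisons, beside 3.81%, 5.17% and 4.34% of all circRNAs. The CPM ranges of the groups did not overlap for 1, 5 and 3 of the 18, beside 9.17%, 8.75% and 9.84% of all. A 0 in control 3 was taken as 0 CPM here, for the 18 and for all circRNAs alike. Rings of a host share it and a pair of groups shares its libraries, and the 18 are those that passed the filter, so these counts are a description. The count of passing rings was also 0 by DESeq2 and by limma-voom.

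The table also bears on how much of the RNA at the ring sites was circular. Besides back-splice (junction) reads the table lists non-junction reads, found at the ends of a ring without crossing its junction. The circular share is taken as 2J of 2J + N, with J the junction and N the non-junction reads of a library. Reads of another ring that covers the same exon ends can be among N. A low share of a ring therefore need not mean that the RNA there was linear. Some of these lists stand in the file as a single number whose separators are lost. Shares could be read for 35 of the 57 rings, 8 of them only by taking every item as 3 digits, the leading Bckdhb rings included, and the other 22 were not used. The share of the leading Bckdhb ring was 79.0%, 75.5% and 71.7% in APAP livers and 70.9% and 69.8% in control 1 and 2, with 95% intervals (Wilson, counting error only) that span 68.6% to 81.0% and 67.5% to 73.0%. Its values in dmPGE2+APAP livers could not be read. Over 16 Cps1 rings that could be read, each in 1 library, the share was 0.046% to 0.397%, beside 3017 to 17464 non-junction reads. These are the rings seen in 1 library only, with 3 to 12 junction reads each. The 17 Cps1 rings seen in more libraries could not be read, so the range does not describe Cps1 as a whole. Aass rings other than the leading ring had 0.325% to 11.8%. The lowest values, 0.325% for novel_circ_0012102 (exons 9 to 15) and 0.404% for novel_circ_0012104 (exons 3 to 9), belong to rings with ends inside the leading ring. They had 2457 and 3453 non-junction reads, and the part of the leading ring in these was not tested. For the leading Aass ring only a bound in APAP 1 was possible, where it had 1822 junction reads. If every other item of its list has at least 3 digits, it had at most 6984 non-junction reads there. Its share in APAP 1 was then at least 34.3%. The lists of the leading Aass ring and of the leading Cps1 rings, novel_circ_0007432 and novel_circ_0007457, could not be read, so the leading rings of the 3 genes were not compared.

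**Figure D5:**
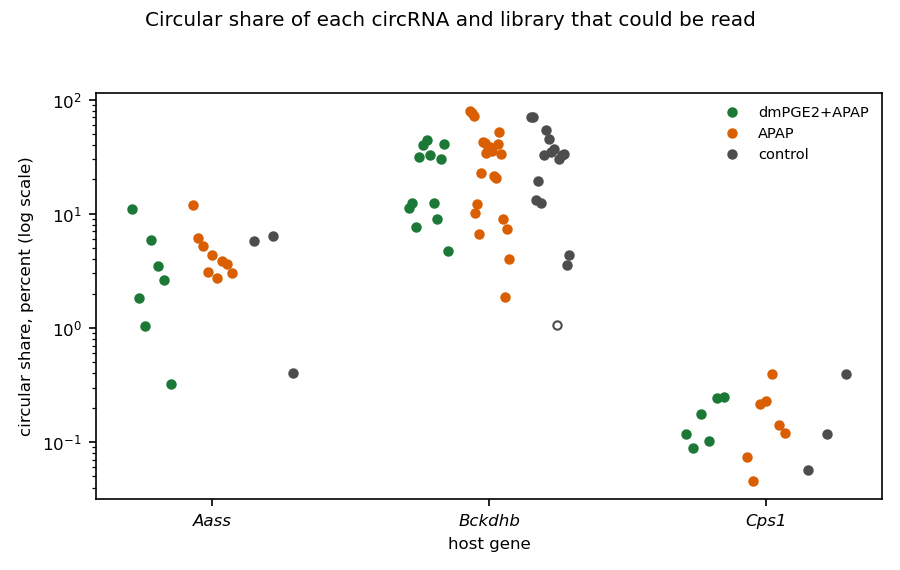
Circular share (percent, log scale) of each circRNA in each library where it could be read, by host gene, with dmPGE2+APAP, APAP and control from left to right and 1 point per circRNA and library. The open point is control 3. The leading Aass and Cps1 rings are not among the points. The Cps1 points, all of rings seen in 1 library only, lie below 0.4%. The Aass points lie at 0.325% to 11.8%, and the Bckdhb points at 1.07% to 79.0%.

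The Bckdhb ring of exons 2 to 8 could be read in all 9 libraries. Its circular share was 31.5%, 40.2% and 43.9% in dmPGE2+APAP livers, 38.3%, 35.8% and 21.4% in APAP livers, and 34.8%, 36.9% and 1.07% in control livers. The groups overlapped apart from control 3, which had 2 junction and 370 non-junction reads there, and the exact permutation p over the groups was 0.468. The other libraries had 97 to 202 non-junction reads there, so control 3 was not low in such reads at this ring. Whether its total sequencing depth was low was not tested. For the ring of exons 2 to 6 the share was 41.4%, 34.2% and 36.0% in APAP livers and 53.6% and 45.4% in control 1 and 2, and no dmPGE2+APAP value could be read. These groups did not overlap, in the opposite direction to the leading ring, and 3 against 2 samples cannot reach a p below 0.1. Each of these rings covers an end of the other, so reads of either can count as non-junction reads of the other. Their shares are therefore not independent. Summed over the readable rings of each host, the exact permutation p over the groups was 0.871 for Aass, 0.5 for Bckdhb and 0.946 for Cps1, with different rings behind the values of different groups. Without control 3 the p of Bckdhb was 0.05, where the dmPGE2+APAP values lack both leading rings.

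A wider list of amino acid breakdown and urea cycle genes gave no call either. Of 100 genes on the list, 53 had circRNAs and 41 host sums entered the test. None of the 41 passed in any of the 3 comparisons by edgeR, DESeq2 or limma-voom. At an unadjusted p under 0.05 by edgeR there were 1, 2 and 2 in dmPGE2+APAP over APAP, APAP over control and dmPGE2+APAP over control. The shares of all host genes were 2.71%, 5.34% and 4.24%. In the same order the count was 2, 1 and 1 by DESeq2 and 2, 8 and 2 by limma-voom. For these tools the share of all host genes was not counted, so no excess can be read from their counts. The median log2 fold change of the 41 was 0.09, -0.22 and -0.06 in this order, beside 0.03, 0.15 and 0.20 over all 2358 host genes. For APAP over control 26 of the 41 had a negative value, and the share over all host genes was not counted. Without control 3 the medians were 0.08, -0.37 and -0.14, beside 0.03, -0.04 and 0.03. Over the same libraries the summed circRNA level of 7 pericentral marker genes was 3340 to 4434 CPM in dmPGE2+APAP, 2570 to 3120 CPM in APAP and 4370 to 8941 CPM in control livers (4370 to 4940 CPM without control 3). That of 6 periportal ones, Cps1 among them, was 3098 to 3667 CPM, 3380 to 3975 CPM and 2063 to 3134 CPM. Without control 3, where Cps1 had 0 reads, the periportal range in control livers was 2624 to 3134 CPM. Glul, Lgr5 and Rhbg of the pericentral list and Ass1, Arg1, Sds, Hsd17b13 and Aldh1b1 of the periportal list had no circRNA. Whether these marker levels bear on the values above was not tested.

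After Aass and Bckdhb, the tested list genes with the highest levels were Ogdh, Hibadh, Asl, Kynu, Hykk and Cth. Ogdh, a subunit of the oxoglutarate dehydrogenase, had 2789 ± 152 CPM in dmPGE2+APAP, 2673 ± 284 CPM in APAP and 2986 ± 462 CPM in control livers (SD, n = 3 each). Hibadh, of valine breakdown, had 2521 ± 353, 2305 ± 192 and 3149 ± 866 CPM in the same groups. Asl, which splits argininosuccinate in the urea cycle, had 2170 ± 273 CPM in dmPGE2+APAP, 2338 ± 502 CPM in APAP and 1886 ± 488 CPM in control livers. Kynu, of tryptophan breakdown, had 1474 ± 108 CPM in dmPGE2+APAP, 1425 ± 233 CPM in APAP and 2015 ± 42 CPM in control livers, with a log2 fold change for APAP over control of -0.40 ± 0.32 (adjusted p = 1, edgeR). The control 3 value of Kynu rested on 9 reads, so the small SD of its controls may not reflect a low spread. Without control 3 the log2 fold change for APAP over control was -0.53 ± 0.22 (adjusted p = 0.886, edgeR). Hykk, the hydroxylysine kinase, had 1049 ± 115, 1001 ± 120 and 1138 ± 231 CPM, and Cth, of cysteine synthesis, had 968 ± 256, 966 ± 49 and 961 ± 248 CPM, each in dmPGE2+APAP, APAP and control livers.

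The smallest unadjusted p values of the list belonged to hosts of few reads. Gcdh, which follows AASS further down lysine breakdown, had 0 reads in each dmPGE2+APAP library, 0, 0 and 14 reads in APAP livers, and 17, 17 and 0 reads in control livers. Its unadjusted p was 0.025 for dmPGE2+APAP over APAP and 0.0167 for dmPGE2+APAP over control, with an adjusted p of 1 by edgeR. Cbs, which makes cystathionine from homocysteine, had 0, 0 and 5 reads in dmPGE2+APAP livers, 12, 23 and 0 reads in APAP livers, and 0 reads in each control. Its unadjusted p for APAP over control was 0.0336, with an adjusted p of 0.869 by edgeR.

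The levels of the 3 hosts were also set side by side over the 8 libraries other than control 3. Pearson's r of log2 CPM (prior count 2, TMM scaling) was 0.287 between Aass and Bckdhb, -0.141 between Aass and Cps1, and -0.722 between Bckdhb and Cps1, as descriptions over 8 libraries. Among 1168 hosts with reads in all 8, the patterns among those most like that of Aass were Cul3 (r = 0.862) and Ubqln1 (0.847). For Bckdhb the most like were Rab10os (0.952), Chuk (0.926) and Tmem56 (0.9), and for Cps1 Frmd4b (0.949), Ncoa2 (0.915) and Farsa (0.906). With so many hosts over 8 libraries, high values of r arise at the top of any such order.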

How the data were processed

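Liver circRNAs were measured in 9 libraries. The deposited table gives, per the file headers, the position, source gene, segments and non-junction reads of each circRNA and, for each library, whole-number counts of back-splice reads that the authors left unscaled. The other 9 value columns (TPM) were not used. HISAT2 and GRCm38 are named per the submitters' processing notes, and the caller was not given in the sources used here. Libraries were depleted of ribosomal RNA, per the labels' protocols. The columns coded BC match no label by name and were taken as control by elimination, with their own numbers. Deposited starts were raised by 1.

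Host sums (2358) and circRNAs (4331) with a minimum of 5 reads in 3 or more libraries were fitted with edgeR 4.0.16 in R 4.3.3 (TMM, quasi-likelihood F test, all 9 libraries, 1 mean per group) and adjusted by Benjamini-Hochberg at 0.05, after a check on simulated counts. DESeq2 1.42.0, limma-voom (limma 3.58.1), other filters and scalings, a replicate block and each library left out were alternatives. Shares were compared by exact permutation over libraries (scipy 1.17.1). The text names, per host, the 5 circRNAs of highest mean CPM and that of smallest p per comparison, and from the list the 6 other genes of highest level and that of smallest p. Of the host genes most like each member in pattern, 1 is not reported here. The members and lists were chosen with earlier results of these data known.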

Additional observations from a re-analysis of the deposited data

How the results depend on the processing

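No member host sum, member circRNA or list gene passed the adjusted threshold under any alternative run. The smallest adjusted p was 0.603 over 153 values of the host sums and 0.137 over 971 of the circRNAs, the second value for novel_circ_0014841 in APAP over control without control 3. Log2 fold changes near 0 turned sign with the scaling or tool. Aass in dmPGE2+APAP over control (0.09) was -0.10 without TMM scaling, -0.004 by DESeq2 and -0.01 by limma-voom, and Cps1 in dmPGE2+APAP over APAP (0.01) was -0.01 without TMM scaling. Without TMM scaling, mmu_circ_0001822 was -0.16 for dmPGE2+APAP over control and -0.18 for APAP over control (-0.01 by limma-voom), and novel_circ_0012103 was -0.13 for dmPGE2+APAP over control (-0.01 by limma-voom). The exact p of the Aass leading ring percent was 0.075 among rings past the low count filter. The causes were not tested.

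With each library left out in turn, the dmPGE2+APAP over APAP values ran from -0.03 to 0.12 for Bckdhb, -0.14 to 0.12 for Cps1, -0.004 to 0.17 for mmu_circ_0001822, -1.32 to 0.49 for novel_circ_0007422, -0.37 to 0.77 for novel_circ_0007426, -0.39 to 0.11 for novel_circ_0007432, -0.61 to 0.52 for novel_circ_0012095, -0.33 to 0.01 for novel_circ_0012103, -0.25 to 0.40 for novel_circ_0014838 and -0.10 to 0.24 for novel_circ_0014841. The APAP over control values ran from -0.05 to 0.21 for mmu_circ_0001822 and -0.24 to 1.73 for novel_circ_0007457. Those of dmPGE2+APAP over control ran from -0.07 to 0.24 for Aass, -5.20 to 4.21 for novel_circ_0012101 (where a group can be left at 0, so that the value depends on the prior count), -0.09 to 0.41 for novel_circ_0012103, -0.33 to 0.09 for novel_circ_0014842, -0.73 to 0.35 for novel_circ_0014846 and -2.08 to 0.19 for novel_circ_0014848. The exact p ran from 0.371 to 0.895 for the Aass and 0.05 to 0.682 for the Bckdhb circular share, and from 0.0179 to 0.0679 for Aass, 0.0393 to 0.375 for Bckdhb and 0.0381 to 0.586 for Cps1 as leading ring percent.

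Same-numbered libraries did not deviate together (correlations -0.011 to 0.021), so the numbers were not taken as pairs. With the replicate number as a block, dmPGE2+APAP over APAP was -0.22 for Aass, 0.03 for Bckdhb and 0.0002 for Cps1, APAP over control was 0.32, -0.18 and 0.78, and dmPGE2+APAP over control was 0.09, -0.14 and 0.78, with 0 members called. Over the whole table, host genes called in dmPGE2+APAP over APAP, APAP over control and dmPGE2+APAP over control numbered 3, 8 and 4 (0 to 6, 1 to 13 and 1 to 6 under the alternatives) and circRNAs 3, 6 and 5 (0 to 9, 2 to 12 and 1 to 12). The low back-splice total of control 3 limits every comparison with control.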
